A study of Homo sapiens with 6 samples.

Results

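A set of 10 genes of the BCL2 family, the proteins that hold mitochondria intact or open them during programmed cell death, were examined in human bladder cancer cells given an androgen or its solvent. The genes were taken by name and every probe set that the platform annotation maps to one of them alone was kept. This gave 10 of 18129 genes and 47 of 44898 probe sets with a single gene symbol. The anti-apoptotic genes are BCL2, BCL2L1, BCL2L2 and MCL1, the BH3-only genes are BCL2L11, BBC3, PMAIP1 and BMF, and the effector genes are BAX and BAK1. All arrays came from UMUC3-c31 cells, which bear the name of the bladder carcinoma line UMUC3; the origin of c31 is not given in the labels. Both groups stood for 24 h in charcoal-stripped serum, which lacks most steroids. The vehicle group (n = 3) then had ethanol and the R1881 group (n = 3) had 10 nM of R1881, a synthetic androgen, for 24 h before RNA was taken.

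Anti-apoptotic members of the family bind and restrain the effectors BAX and BAK1, which otherwise form pores in the outer mitochondrial membrane and release cytochrome c. BH3-only proteins are the sensors of the system: they occupy the groove of the anti-apoptotic proteins, and some also activate the effectors directly. Much of their control is transcriptional, through FOXO factors and stress pathways, and steroid hormones are known to alter several of these genes in other tissues.

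Values are log2 RMA intensities, as deposited. Array medians were 5.49 to 5.51. The number of arrays limits the precision of every value. On the second principal component over genes vehicle replicate 1 scored 11.04 and the other vehicle arrays -8.21 and -6.99, so member values that rest on it are also given without it. FKBP5, a steroid receptor cochaperone used here as the check of the treatment, rose by 1.49 ± 0.05 (SE) with an adjusted p of 3.22e-05. Of 6 epithelial markers 3 lay above the background level, while EPCAM and CDH1 lay below it at 2.65 and 3.17 in vehicle. The keratin gene KRT18 fell by 0.37 ± 0.05 (SE, limma adjusted p = 0.00830) and KRT7 rose by 0.40 ± 0.06 (adjusted p = 0.0192). The summed linear level of the 6 was 1984 to 2103 in vehicle and 1601 to 1685 with R1881. Of 7 urothelial markers 3 (FOXA1, GATA3 and UPK1A) lay narrowly above background and none passed. The highest mean over all arrays was 5.05. Of 6 immune or blood markers 3 lay above background and none passed: CD68 read 8.93 in vehicle and differed by -0.24 ± 0.10 (adjusted p = 0.328), while the leukocyte marker PTPRC lay at 3.0. Their summed level was 521 to 609 in vehicle and 484 to 552 with R1881. Of 7 fibroblast markers only THY1 and PDGFRB exceeded background and none passed, with sums of 357 to 378 and 399 to 436. Among 5 endothelial markers only TEK passed, rising from 3.72 to 5.0; the other 4 differed by -0.14 (PECAM1) to 0.17 (CDH5). The summed level of the 5, TEK included, was 101 to 109 in vehicle and 120 to 132 with R1881. The part of these marker differences in any result was not tested. The background level, 4.99, is the 90th percentile of 423 olfactory receptor and keratin-associated protein genes.

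Most of the family did not pass. Of the 10 genes, each on its brightest probe set, BCL2 fell, none rose and 9 did not pass the threshold (limma, Benjamini-Hochberg adjusted p under 0.05 over all 18129 genes). Over all genes 2.42% were called, 1.6% higher and 0.816% lower. With every probe set tested by limma, none of the 47 was called, against 1.54% of 49193 (1.12% higher and 0.427% lower), and 7 had an unadjusted p below 0.05, against 12.5%. The median change of the 10 genes was 0.05 on the log2 scale, beside 0 over all genes, and 8 of 10 were higher by sign. The share of all genes higher by sign was not taken. Without regard to sign the median change was 0.075 in the 10 genes and 0.067 over all genes. Groups of arrays did not overlap in 3 of the 10 genes, BCL2, MCL1 and PMAIP1, against 18.5% of all genes; they were 2 of 10 after median centring, against 23.1%. For a single gene with 3 arrays against 3 the smallest exact two-sided permutation p is 0.10, which those 3 genes had. In RNA from whole cultures, fewer cells with a transcript and less of it per cell cannot be told apart.

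**Figure D1:**
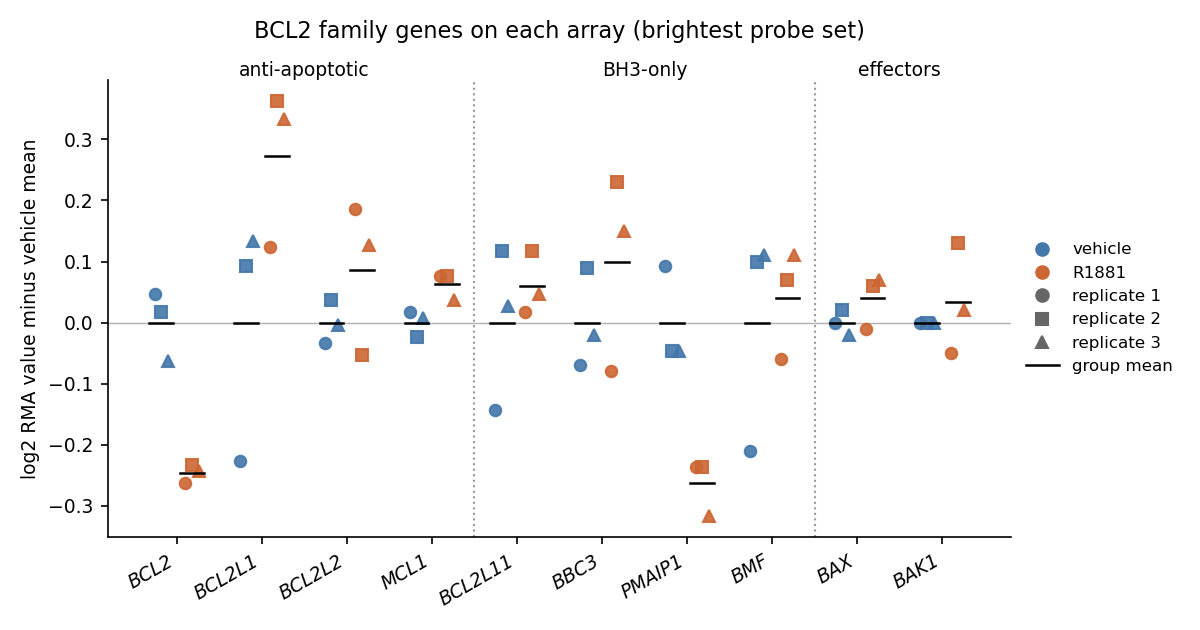
Each point is 1 array: the log2 RMA value of a gene's brightest probe set minus its vehicle mean, with vehicle at left in blue, R1881 at right in orange, replicates by shape and group means as bars. BCL2 and PMAIP1 sit about 0.25 and 0.26 below vehicle, BCL2L1 about 0.27 above with overlapping arrays, and the other 7 genes lie between 0.033 and 0.10 above.

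BCL2, the founding anti-apoptotic gene, was the member with the smallest p. Its brightest probe set, 11721377_x_at, read 5.94, 5.91 and 5.83 in the vehicle arrays and 5.63, 5.66 and 5.65 in the R1881 arrays. Every R1881 array lay below every vehicle array, and the R1881 arrays were close together. The change was -0.25 ± 0.05 (SE), or 0.843 times vehicle (95% confidence interval 0.781 to 0.909), and the limma adjusted p was 0.0472. With every probe set tested the adjusted p of the same set was 0.0780.

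The 6 BCL2 probe sets did not move together. The set 11721376_at, annotated to the same transcript as the brightest one, that of the main isoform alpha, read 5.83, 5.74 and 5.74 and then 5.72, 5.59 and 5.57. It differed by -0.14 ± 0.06 (SE, adjusted p = 0.394 with every probe set tested by limma), again with no overlap between groups. These sets share a target and are not independent readings. The sets annotated to the shorter isoform beta differed by 0.07 ± 0.05 on 11738350_a_at and by -0.10 ± 0.07 on 11738351_x_at. The remaining pair, 11721375_a_at and 11721374_a_at, lay below background at 4.19 and 3.92 in vehicle, with differences of 0.013 and 0.10. The mean over the 6 sets was -0.051 ± 0.04 (SE), with a limma adjusted p of 0.581.

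The BCL2 call was fragile, and the gene was dim. Its brightest set lay at 5.89 in vehicle, not far above the background level of 4.99, and the x in its identifier marks probes that also match other transcripts. The call ended when any 1 array was left out (adjusted p of 0.0741 to 0.155, 0.122 without vehicle replicate 1) and on the brightest set without an s or x (11721376_at, adjusted p = 0.356). The genes whose 6 array values, centred on vehicle, were closest to those of BCL2 among 10966 genes above background were ASF1A, PRIM1 and POLE2. ASF1A is a histone chaperone, PRIM1 a primase subunit and POLE2 a subunit of DNA polymerase epsilon. Their root mean square differences from BCL2 were 0.016, 0.020 and 0.021 on the log2 scale, and their own changes were -0.25, -0.26 and -0.26. Such changes follow from the choice by closeness. ASF1A did not pass (limma adjusted p = 0.0577), while PRIM1 and POLE2 did (0.0315 and 0.0415).

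BCL2L1 encodes Bcl-xL, which guards mitochondria in many epithelial cells, and by splicing also the short form Bcl-xS, which promotes death. It was higher by sign on all 3 of its probe sets and passed the threshold on none. The brightest, 11739958_x_at, read 8.10, 8.42 and 8.46 in vehicle and 8.45, 8.69 and 8.66 with R1881. Like the brightest BCL2 set, it carries the x that marks probes also matching other transcripts. Replicate 1 was the lowest array in each group, and R1881 replicate 1 fell within the vehicle range. The difference was 0.27 ± 0.11 (SE), or 1.21 times vehicle (95% confidence interval 1.01 to 1.45), with a limma adjusted p of 0.330. Without vehicle replicate 1 it was 0.16 ± 0.08, with an adjusted p of 0.480. With a replicate block it was 0.27 ± 0.05, with a limma adjusted p of 0.123.

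On 11739957_a_at the BCL2L1 values were 6.27, 6.73 and 6.49 in vehicle and 7.0, 6.94 and 7.10 with R1881. Here the groups did not overlap, and the difference was the widest of all 47 probe sets in this family, at 0.52 ± 0.11 (SE, adjusted p = 0.103 with every probe set tested by limma). Without vehicle replicate 1, again the lowest, it was 0.40 ± 0.09. The dim set 11759514_at read 5.08, 4.98 and 5.08 and then 5.06, 5.38 and 5.54, with 1 R1881 array inside the vehicle range. The mean of the 3 sets differed by 0.36 ± 0.08 (SE), with a limma adjusted p of 0.0867. The set 11739957_a_at did pass, adjusted over probe sets, when only those above background were tested and with a trended, robust prior (limma adjusted p as low as 0.0346). The annotation gives the Bcl-xS transcript as target of the brightest set, and whether any of these sets reads 1 splice form alone was not tested.

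**Figure D2:**
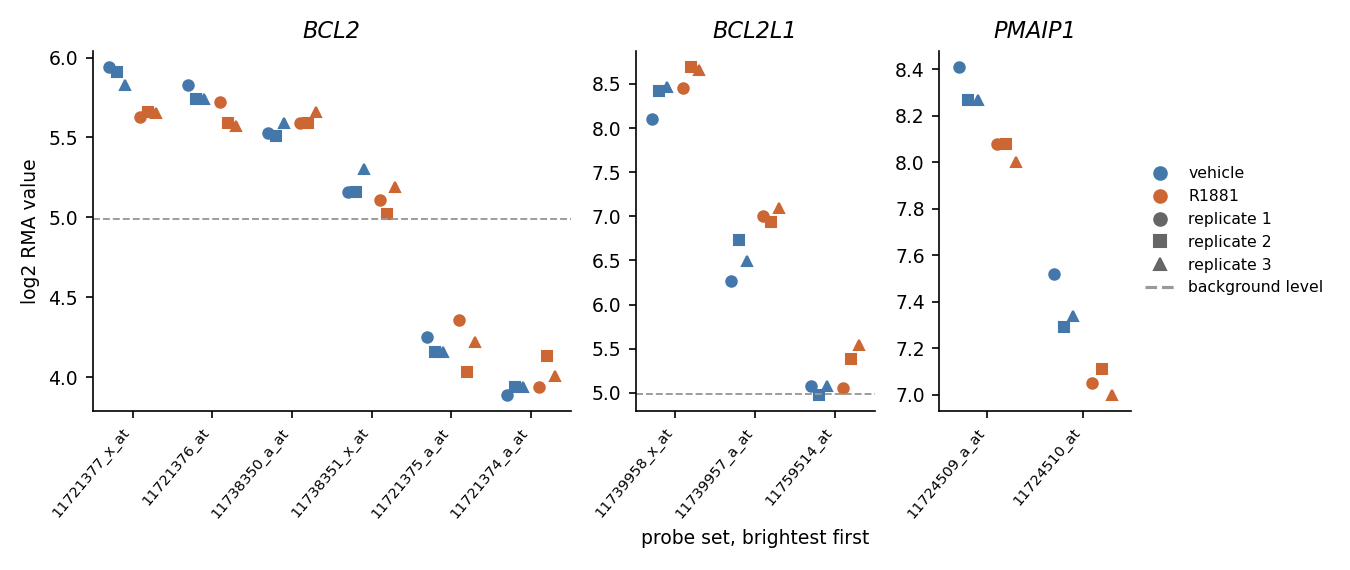
Log2 RMA values of every probe set of BCL2, BCL2L1 and PMAIP1 on each of the 6 arrays, brightest set first, with vehicle in blue, R1881 in orange and replicates by shape; the dashed line is the background level of 4.99, which lies below the range shown for PMAIP1. Both PMAIP1 sets and 2 of the 6 BCL2 sets separate downwards, 1 of the 3 BCL2L1 sets separates upwards, and vehicle replicate 1 is the highest vehicle array on both PMAIP1 sets.

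MCL1, a short-lived anti-apoptotic protein that many cancer lines need, was the brightest member. Its brightest set was 11715483_s_at, which carries an s in its identifier. This set read 10.26, 10.22 and 10.25 in vehicle and 10.32, 10.32 and 10.28 with R1881. The groups did not overlap but the difference was only 0.063 ± 0.04 (SE, limma adjusted p = 0.528), and its interval, 0.977 to 1.12 times vehicle, included no change. The other 5 MCL1 sets ranged from -0.10 to 0.063 with overlapping groups, so the sign depended on the set. BCL2L2, which encodes Bcl-w, read 8.26, 8.33 and 8.29 and then 8.48, 8.24 and 8.42. Its R1881 arrays spread to both sides of vehicle, and the difference was 0.087 ± 0.07 (adjusted p = 0.609). Leaving out R1881 replicate 1 gave 0.037, and leaving out R1881 replicate 2 gave 0.16. The other BCL2L2 sets lay below background.

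PMAIP1 encodes NOXA, a BH3-only protein that binds mainly MCL1 and is induced by stress. Both of its probe sets were lower with R1881, and neither passed. The set 11724509_a_at read 8.41, 8.27 and 8.27 in vehicle and 8.08, 8.08 and 8.0 with R1881. The set 11724510_at read 7.52, 7.29 and 7.34 and then 7.05, 7.11 and 7.0. Every R1881 array lay below every vehicle array on both sets, and vehicle replicate 1 was the highest on both.

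The PMAIP1 difference was -0.26 ± 0.06 (SE) on the brighter set, or 0.833 times vehicle (95% confidence interval 0.760 to 0.913), with a limma adjusted p of 0.0744. It was -0.33 ± 0.07 on the other set (adjusted p = 0.0992 with every probe set tested). Without vehicle replicate 1 these became -0.22 ± 0.05 and -0.26 ± 0.05. The mean of both sets passed narrowly, at -0.30 ± 0.06 with a limma adjusted p of 0.0498. The brighter set also passed when only genes above background were tested (adjusted p = 0.0280) and with a trended, robust prior (0.0195).

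**Figure D3:**
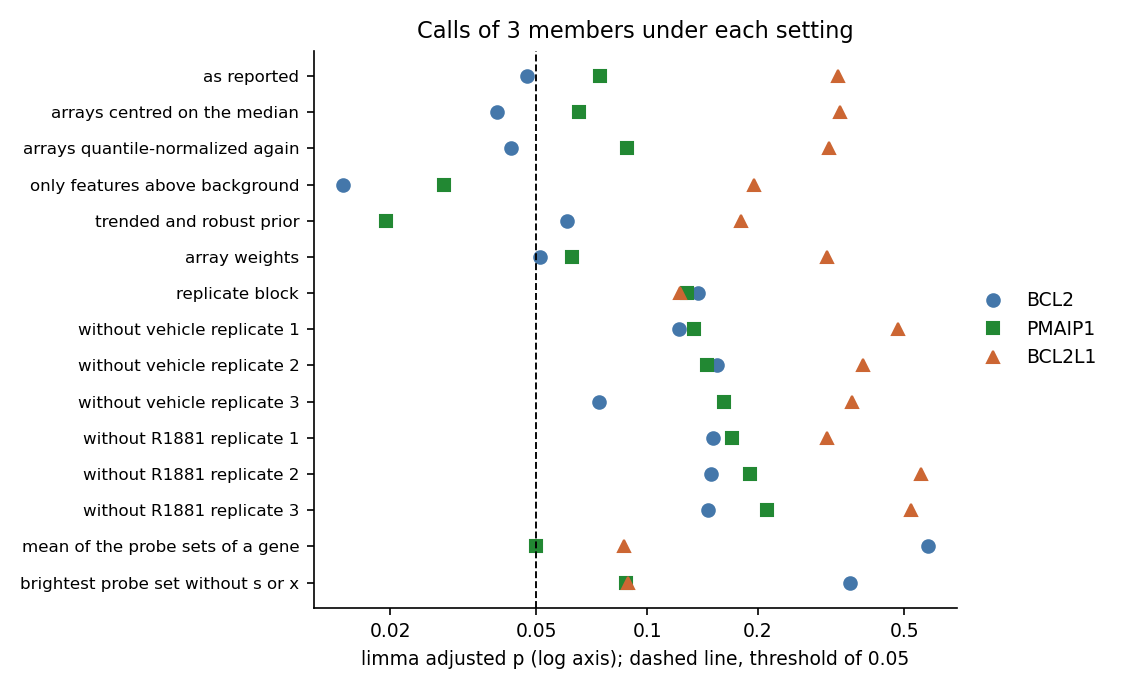
Limma adjusted p, on a log axis, of BCL2, PMAIP1 and BCL2L1 as reported and under each of 14 other settings, with the threshold of 0.05 as a dashed line. BCL2 lies at 0.0472 as reported and right of the line in 11 of the 14, PMAIP1 moves left of it in 3, and BCL2L1 lies right of it in all.

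BCL2L11 encodes BIM, a BH3-only protein under FOXO control that binds every anti-apoptotic member. It has 14 probe sets here, of which 3 lay above background. The brightest read 6.16, 6.42 and 6.33 in vehicle and 6.32, 6.42 and 6.35 with R1881, so all R1881 arrays lay inside the vehicle range. The difference was 0.06 ± 0.07 (SE, limma adjusted p = 0.745), and -0.012 without vehicle replicate 1, its lowest array. Over its 14 sets the differences ran from -0.033 to 0.24, and the set at 0.24 lay below background. BBC3, which encodes the BH3-only protein PUMA, read 7.59, 7.75 and 7.64 and then 7.58, 7.89 and 7.81. Its difference was 0.10 ± 0.09 (adjusted p = 0.643), with -0.04 on its other set. Without R1881 replicate 1 it was 0.19 and without R1881 replicate 2 it was 0.035.

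BMF, a BH3-only protein held at the cytoskeleton, read 5.41, 5.72 and 5.73 in vehicle and 5.56, 5.69 and 5.73 with R1881. Vehicle replicate 1 was the lowest array, and the difference of 0.04 ± 0.10 (SE, limma adjusted p = 0.881) became -0.065 without it. The effector BAX read 9.51, 9.53 and 9.49 and then 9.50, 9.57 and 9.58, a difference of 0.04 ± 0.04 (adjusted p = 0.715). The effector BAK1 read 7.57 on every vehicle array and 7.52, 7.70 and 7.59 with R1881, a difference of 0.033 ± 0.06 (adjusted p = 0.819). For BAX the interval was 0.957 to 1.10 times vehicle and for BAK1 0.935 to 1.12. On the brightest sets of the 7 members whose unadjusted p was above 0.05, the widest intervals ran from 0.878 (BMF) to 1.24 times vehicle (BBC3). Some other sets of these genes above background had intervals that reached further. They extended down to 0.792 (MCL1 11715487_a_at) and up to 1.27 times vehicle (BCL2L11 11718080_a_at).

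**Figure D4:**
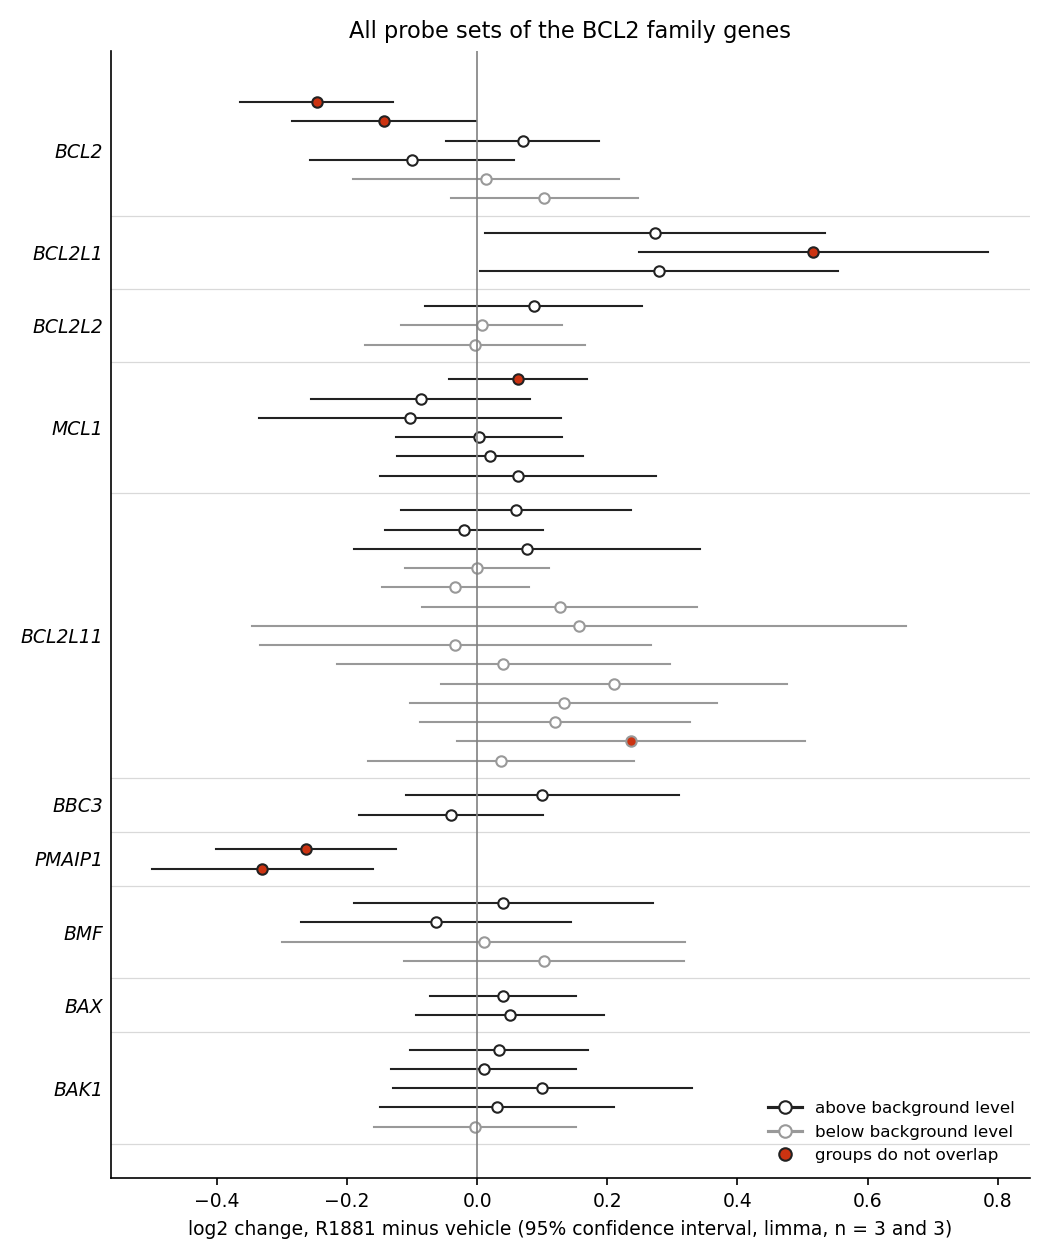
Log2 change, R1881 minus vehicle, of all 47 probe sets with 95% confidence intervals from limma on every probe set (3 arrays against 3), grouped by gene and ordered by brightness within a gene; grey sets lie below the background level and red points mark the 7 sets whose groups do not overlap. The intervals of both PMAIP1 sets and all 3 BCL2L1 sets lie to 1 side of zero, as do those of 2 of the 6 BCL2 sets, while every interval of the other 7 genes crosses it.

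Of the 47 probe sets, 7 had groups that did not overlap, against 16.8% of all probe sets, and they fell to 5 genes. Both PMAIP1 sets and 2 BCL2 sets were lower with R1881, and 1 set each of BCL2L1, MCL1 and BCL2L11 was higher. In all, 29 of the 47 sets lay above background, 32 were higher by sign, 14 lower and 1 equal.

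The sequence before the transcription start is shown for PMAIP1 and BCL2L1, the members with an unadjusted p below 0.05 on every probe set, and for BCL2L11, the member tied to FOXO factors. This choice was made with the values known. Each line is the 250 bases upstream of the start in RefSeq (GRCh38.p14), on the gene's strand, with matches to the motifs named below in capitals. The windows are chr18:59899746-59899995 (plus strand) for PMAIP1, chr20:31723964-31724213 (minus strand) for BCL2L1 and chr2:111120664-111120913 (plus strand) for BCL2L11.
PMAIP1: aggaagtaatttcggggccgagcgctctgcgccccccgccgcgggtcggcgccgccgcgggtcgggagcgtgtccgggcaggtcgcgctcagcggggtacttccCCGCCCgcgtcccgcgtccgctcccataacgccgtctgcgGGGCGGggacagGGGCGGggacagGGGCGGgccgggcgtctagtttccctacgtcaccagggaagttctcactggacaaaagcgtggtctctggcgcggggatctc
BCL2L1: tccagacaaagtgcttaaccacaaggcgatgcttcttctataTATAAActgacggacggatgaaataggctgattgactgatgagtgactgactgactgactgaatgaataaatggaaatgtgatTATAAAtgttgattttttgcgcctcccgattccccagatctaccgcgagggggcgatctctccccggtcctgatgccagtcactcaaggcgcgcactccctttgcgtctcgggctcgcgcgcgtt
BCL2L11: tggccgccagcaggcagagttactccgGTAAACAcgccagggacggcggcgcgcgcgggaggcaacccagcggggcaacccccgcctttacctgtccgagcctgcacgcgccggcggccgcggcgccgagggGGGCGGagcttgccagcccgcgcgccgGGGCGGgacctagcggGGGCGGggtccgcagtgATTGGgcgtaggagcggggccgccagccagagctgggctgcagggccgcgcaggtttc

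The motifs searched, on both strands, were the steroid receptor half-site AGAACA, the FOXO site GTAAACA, the cAMP response element TGACGTCA, the E2F site TTTGGCGC, the GC box GGGCGG, the box read by factor NF-Y (CCAAT) and the TATA box (TATAAA). The PMAIP1 window holds 4 matches to the GC box, and 42.6% of all 35116 such windows hold at least 1. The share with 4 was not taken. Bases G and C made up 72.8% of this window and 76.8% of the BCL2L11 window, against a median of 58.0% over all windows. The BCL2L1 window holds TATAAA 2 times, from 208 and from 125 bases upstream, a motif found in 10.7% of windows; a second RefSeq window of this gene, not printed, holds none of the motifs. The BCL2L11 window holds GTAAACA from 223 to 217 bases upstream, found in 2.98% of windows, with 3 GC boxes and 1 CCAAT match on the opposite strand. The half-site AGAACA was in none of the 10 windows of 8 member genes and in 12.4% of all windows. The window of BCL2 held none of these motifs, and MCL1 and BCL2L2 were not searched. The windows of BCL2 and BBC3 and the second windows of BCL2L1 and BMF overlap the RefSeq span of their own gene. They are therefore not upstream of the whole gene.

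Other genes of the death pathway were taken as 7 lists, which hold 77 measured genes. Calls were made for 7 of the 77 (9.09%), 6 of them higher and 1 lower, which left 70 uncalled. Over all genes the called share was 2.42%, and over the genes above background 3.86%. Because the lists were chosen with earlier results of these data known, the larger share cannot be read as an excess. It also counts genes below background, since only 66 of the 77 lay above it. For the 77 genes the median change was 0.013. Among 14 other BCL2 family genes 1 rose, 1 fell and 12 did not pass. BCL2A1, an anti-apoptotic relative induced by NF-kB, read 7.14, 7.07 and 7.18 in vehicle and 6.56, 6.68 and 6.59 with R1881. It fell by 0.52 ± 0.05 (SE, limma adjusted p = 0.00388), and kept its call without any 1 array (adjusted p up to 0.0305). BNIP3L, a mitophagy receptor of the outer mitochondrial membrane, rose by 0.30 ± 0.05 (adjusted p = 0.0201) but lost its call in each of the 6 leave-outs (up to 0.0991).

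Partners of the family and its upstream factors held 4 of the 7 calls. Of 14 interactors and turnover factors 2 rose and 12 did not pass. BAG3, a cochaperone that binds BCL2, read 10.45, 10.48 and 10.48 and then 10.92, 10.92 and 10.93. It rose by 0.45 ± 0.04 (SE, limma adjusted p = 0.00195) and kept its call without any 1 array. DYNLL2, the dynein light chain that tethers BMF, rose by 0.32 ± 0.05 (adjusted p = 0.0173); it lost its call without vehicle replicate 3 or any R1881 replicate (up to 0.0814). Of 10 transcription factors of BH3-only genes 2 rose and 8 did not pass. FOXO1, an activator of BCL2L11, read 6.48, 6.38 and 6.40 and then 6.99, 6.79 and 6.79, a rise of 0.44 ± 0.07 (adjusted p = 0.0217). It kept its call only when R1881 replicate 1 was the array left out (up to 0.106). The glucocorticoid receptor gene NR3C1 was the other riser, at 0.25 ± 0.05 (adjusted p = 0.0462). It lost its call whichever array was left out (limma adjusted p of 0.111 to 0.148) and after median centring (0.0530). The stress factor gene DDIT3 stood at -0.15 ± 0.06 (adjusted p = 0.293).

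The execution steps, the mitochondrial partners and the death receptors with their ligands and adaptors held 1 call. Of 13 measured apoptosome and caspase genes none passed in limma, and none had an unadjusted p under 0.05; the cytochrome c gene CYCS stood at -0.11 ± 0.05 (SE, adjusted p = 0.376). Of 6 caspase inhibitor genes none passed and 2 had an unadjusted p under 0.05, the survivin gene BIRC5 at -0.20 ± 0.04 (limma adjusted p = 0.0647) and XIAP at -0.12 ± 0.05 (0.349). Of 9 mitochondrial partners none passed and 1 had an unadjusted p under 0.05, the hexokinase gene HK2 at 0.18 ± 0.06 (limma adjusted p = 0.241). Of 11 genes for death receptors, their ligands and adaptors 1 rose, TNFRSF10D, a decoy receptor for the ligand TRAIL. The rise was 0.33 ± 0.04 (limma adjusted p = 0.00783). This call held without any 1 array (adjusted p up to 0.0488) but not with a replicate block (0.0614). FAS stood at -0.18 ± 0.04 and the TRAIL receptor gene TNFRSF10B at 0.17 ± 0.05 (adjusted p = 0.0896 and 0.149).

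**Figure D5:**
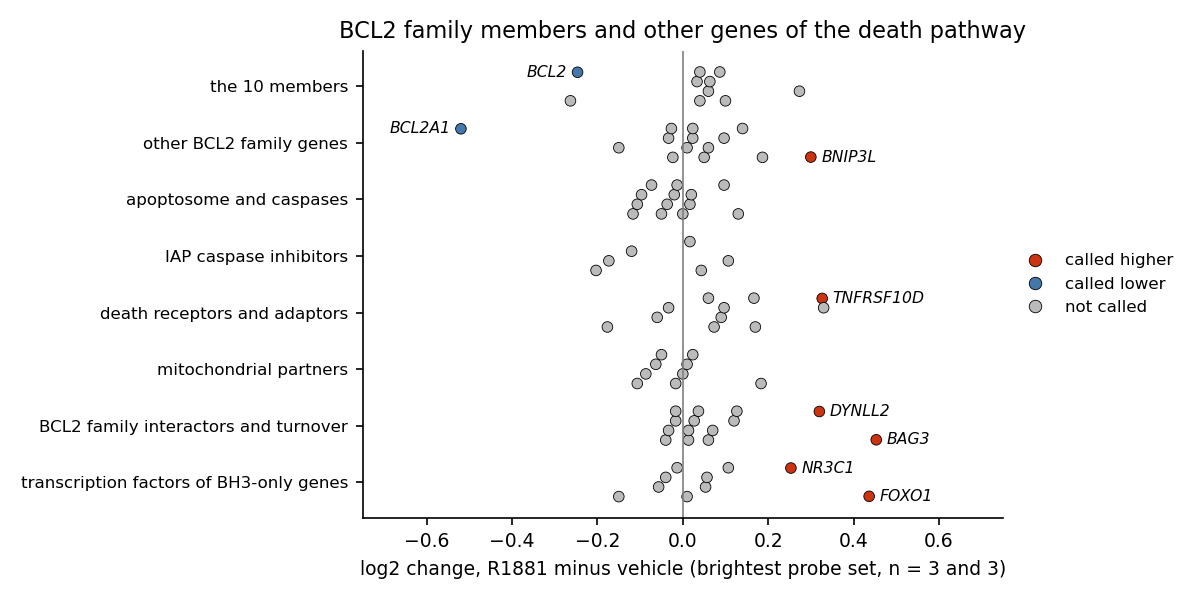
Log2 change, R1881 minus vehicle (3 arrays against 3), of the brightest probe set of each gene, with the 10 members in the top line and 7 lists of other death pathway genes below; red and blue mark genes called higher and lower by limma and grey marks those not called. The 8 calls shown are 6 higher and 2 lower, with BCL2A1 farthest below zero at -0.52 and BAG3 farthest above at 0.45; vertical offsets only separate points.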

How the data were processed

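RNA of 6 UMUC3-c31 samples was read on Affymetrix arrays. The deposited table gives log2 values, 1 per probe set and array. Per the submitters' processing notes the authors used RMA, with no version or filter named there. RMA equalises array distributions, so a shift of all transcripts one way would be removed. Probe sets were named through the platform annotation (44898 with 1 symbol, 1825 with several, 2470 unlisted). Groups were compared with limma 3.58.1 in R 4.3.3 (lmFit, eBayes, two-sided, Benjamini-Hochberg), in a fit of 1 probe set per gene, the brightest, and in a fit of every probe set. The member genes, lists and alternatives were chosen with earlier results of these data known. Named genes were all members, every called gene of the other lists, otherwise at most 4 of a list from those with the smallest p, some defining cell type markers, and for BCL2 the 3 closest profiles. Alternatives covered scaling, a background filter, the prior, array weights, a replicate block, the choice of probe set and leaving out each array. The fits were tested on simulated data. Some listed genes were not analysed here. No array was a copy of another (at most 9.02% of values equal in a pair).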

Additional observations from a re-analysis of the deposited data

How the results depend on the processing

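The member calls depended on the setting. With 438 of 18129 genes called as reported, 757 of the 11049 above background were called when only those were tested. There were 895 with a trended, robust prior, 222 with a replicate block and 209 to 270 without 1 array. Over every probe set (759 as reported) these counts were 1383, 1525, 372 and 302 to 406. Against 1 member gene called as reported, 2 were called above background (BCL2 and PMAIP1), 0 with array weights, 0 on the brightest set without s or x, 0 with a replicate block and 0 in each of the 6 leave-outs; with the trended prior, or with the mean of a gene's sets, the 1 called was PMAIP1 in place of BCL2. Member probe sets called were 4 of the 29 above background and 3 of 47 with the trended prior, against 0 as reported. The 4 were both PMAIP1 sets, BCL2L1 11739957_a_at and BCL2 11721377_x_at, and the 3 were the same without the BCL2 set. Calls over all probe sets rose in the same settings, from 759 of 49193 to 1383 above background and to 1525 of 49193 with the trended prior. The share called among all probe sets above background was not taken. Member genes with groups that did not overlap numbered 3 as reported and 3 to 7 without 1 array, the 7 without R1881 replicate 1; the share of all genes was then 25.9% to 28.1% (28.0% in that case), against 18.5%.

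Signs changed in MCL1 (-0.0067 as the mean of its sets, -0.087 on its brightest set without s or x) and BMF (-0.0085 with array weights). Without 1 array, BMF ran from -0.065 to 0.095, BCL2L11 from -0.012 (without vehicle replicate 1) to 0.12, BAK1 from -0.015 to 0.075 and the dim BCL2 set 11721375_a_at from -0.065 to 0.10. BCL2, BCL2L1 and PMAIP1 kept their direction as genes in all 14 alternatives, and so did BCL2L2, BBC3 and BAX, which were called in none. Same-numbered arrays deviated together only weakly (r of 0.092, 0.057 and 0.033 over genes), although each array correlated best with its own number, so the numbers were not taken as pairs; in the replicate block the adjusted p was 0.138 for BCL2, 0.128 for PMAIP1 and 0.123 for BCL2L1. The block also ended the calls of BNIP3L (0.0811), DYNLL2 (0.0889), NR3C1 (0.107) and TNFRSF10D (0.0614), and BNIP3L lost its call on its brightest set without s or x (0.0533). Signal over background is known only through the proxy, and 18 of the 47 probe sets lay below it. Values are rounded to 2 decimals.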
